A study of Zea mays subsp. mays with 2 samples.

Results

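Dense O11 arrays are runs of 5 or more binding summits on one chromosome in which each summit lies at most 10 kb from the next. Summits on chromosomes 1 to 10 were sorted and linked, and the members were chosen by these summit positions alone. In all, 539 of the 8967 chromosomal peaks (6.01%) fell into 88 such arrays. The whole list held 9080 peaks. The positions come from the same wild type and mutant libraries as every other value of a peak, so all values below are descriptions and none carries a test.

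Opaque11 (O11) is a maize transcription factor with a basic helix-loop-helix domain that acts in the endosperm, the tissue of the kernel that fills with starch and storage protein. Proteins of this family bind DNA as dimers at short E-box motifs, of which the G-box is the best known form in plants. Such motifs are common in any genome, and regulatory DNA often carries several binding sites for one factor close together. A close run of peaks can therefore hold sites of one gene, of neighbouring genes or of repeated DNA. The peak list names no gene and holds no bases, so which of these an array holds was not tested.

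The binding was mapped by chromatin immunoprecipitation and sequencing with a rabbit antibody raised against the full-length O11 protein. One library came from wild type kernels and 1 from kernels homozygous for the o11 mutation (o11/o11), both harvested 15 days after pollination. The mutant lacks O11 protein, per the labels, and was the negative control. The labels give endosperm as the material of the lysates and kernel as the tissue, and they name neither the inbred background nor the mutant allele's origin. With 1 library per genotype no value has a replicate error, and the read totals of the libraries are not part of the list.

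Each peak carries a pileup, which is the number of reads stacked at its summit, and a fold enrichment of that pileup over a background. No column says which library gave the pileup and which the background. The labels call the mutant the negative control, so values are read here as wild type over mutant. The background was solved from the authors' pileup and fold and had a lowest value of 1.06 reads, which 3144 chromosomal peaks shared. For those peaks the fold follows from the pileup alone and is no separate measure. The list does not say whether the shared value was measured at those sites. Intervals on pileups are exact 95% Poisson intervals and cover counting error only. Coordinates are those of the deposited list, counted from 1, and no source used here names their genome build outright. The deposited peak names hold the tag v3, whose meaning the files do not state.

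Most arrays had few summits. There were 44 arrays of 5 summits, 22 of 6, 11 of 7, 4 of 8 and 4 of 9, and single arrays held 10, 13 and 19. They spanned 4.83 kb at the least, 15.1 kb at the median and 49.0 kb at the most. Together the 88 arrays covered 1399 kb, which is 0.0681% of the summed length of the chromosomes up to their last peaks. Peaks took up 17.8% of that span, and the rest was DNA between peaks.

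The largest concentration of summits lay on chromosome 2. The array with most summits ran from 153373735 to 153422717 and held 19 peaks in 49.0 kb. The array next in size, of 13 peaks in 31.1 kb, ended 12.3 kb before it, at 153361477. A further array of 7 peaks began 38.1 kb after it and ended at 153492569. The 3 arrays thus placed 39 peaks in 162.2 kb with no other peak between them. On chromosomes 1, 6, 8 and 9 there was in each case a group of 2 arrays under 100 kb apart.

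Within the 19-peak array pileups ran from 13 to 31 reads with a median of 17, and the tallest was 2.38 times the lowest. At 153373890, the first summit, 22 reads were stacked (95% interval 13.8 to 33.3), and the last, at 153422561, had 15 (8.40 to 24.7). The tallest, at 153386840, had 31 reads (21.1 to 44.0) and the lowest, at 153412288, had 13 (6.92 to 22.2), and these intervals overlap. The background changed along the array. It was 3.40 to 5.69 reads at the first 10 summits and 1.06 to 2.64 reads at the 9 that followed. Folds were accordingly 3.15 to 6.20 in the first stretch and 4.12 to 9.90 in the other, although the tallest pileups stood in the first.

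The 13-peak array beside it was similar in height. Its pileups ran from 14 to 27 reads with a median of 20, its folds from 3.08 to 6.26, and its backgrounds from 1.88 to 6.15 reads. The first summit, at 153330472, had 24 reads and the last, at 153361283, had 21. The tallest, at 153356526, had 27 reads, and the lowest value of 14 stood at 153345496 and again at 153350410. Over the 39 peaks of the 3 arrays 5 (12.8%) had a background at its lowest value, against 58.6% over all array peaks.

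The array next by size on chromosome 2, from 185870899 to 185894570, looked different. Its 10 summits fell into clumps of 3, 5 and 2, separated by gaps of 8079 and 8510 bp. Its median spacing of 709 bp was the shortest of the 88 arrays. A pair of summits stood out. The summit at 185872439 had 32 reads (21.9 to 45.2) and the one at 185881830 had 29 (19.4 to 41.6), while the other 8 had 10 to 13 reads. The first summit, at 185871092, and the last, at 185894354, had 12 reads each, and the lowest value of 10 stood at 185881127 and 185893645. All 10 backgrounds were at the lowest value.

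**Figure D1:**
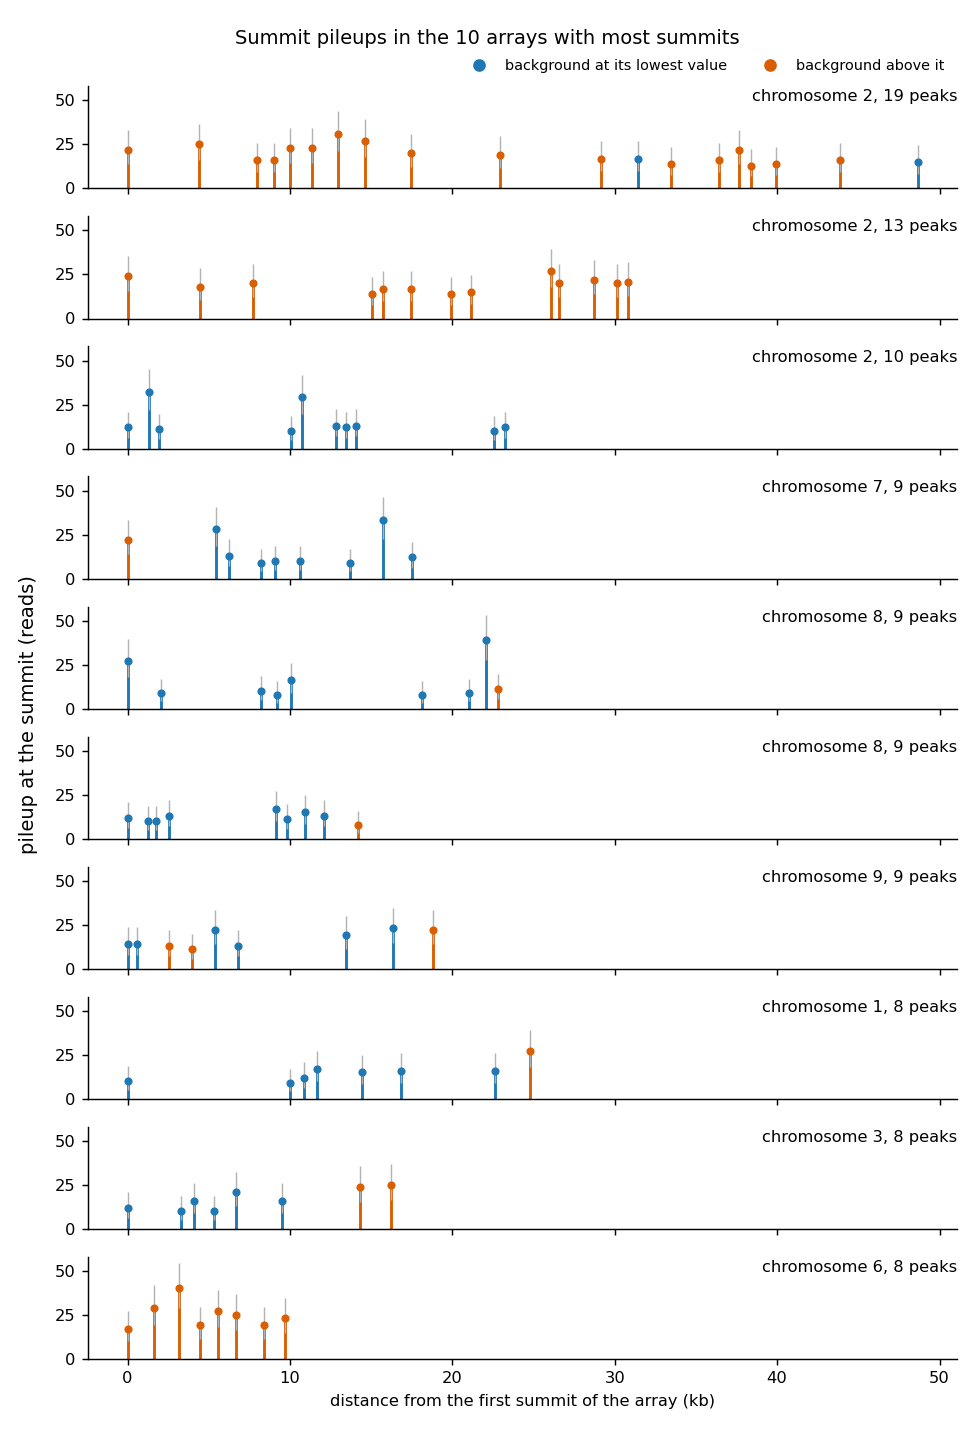
Pileup at each summit (reads, vertical axis) against the distance from the first summit (kb, horizontal axis) in the 10 arrays with most summits, 1 panel per array. Grey bars are exact 95% Poisson intervals, blue marks a background at its lowest value and orange one above it. The 19-peak and 13-peak arrays of chromosome 2 range from 13 to 31 and from 14 to 27 reads, and the 10-peak array has summits of 32 and 29 reads among others of 10 to 13.

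Arrays of 9 peaks came from chromosomes 7, 8 and 9. On chromosome 7 the array from 175233053 to 175251115 held tall summits of 28 reads at 175238911 and 33 reads (22.7 to 46.3) at 175249199, and between them 5 summits of 9 to 13 reads. It began with 22 reads at 175233488 and ended with 12 at 175250978. The lowest value of 9 reads stood at 175241690 and 175247179.

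On chromosome 8 the array from 138394584 to 138417889 had tall summits near both ends. The first, at 138394802, had 27 reads and the one before the last, at 138416851, had 39 (27.7 to 53.3) with a fold of 19.4. The last, at 138417639, had 11 reads, and the lowest value of 8 (3.45 to 15.8) stood at 138403984 and 138412935. The second 9-peak array of chromosome 8, from 149137531 to 149152281, had 8 to 17 reads. Its first summit, at 149138060, had 12 reads. The tallest, at 149147209, had 17 and the last, at 149152277, had the lowest, 8.

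On chromosome 9 the array from 154041243 to 154060321 held pileups of 11 to 23 reads. It began with 14 at 154041413 and ended with 22 at 154060238, with the lowest of 11 at 154045412 and the tallest of 23 at 154057783. The last summit had almost the tallest pileup and a fold of only 4.26, since its background was 4.39 reads. The summit of 23 reads had a background at the lowest value and a fold of 11.7.

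The last 3 of the 10 arrays with most summits held 8 peaks each. A further array of 8 peaks, on chromosome 8 from 165264094 to 165283636, was left out by the rule for ties. On chromosome 1, from 253195556 to 253220635, the first summit, at 253195703, had 10 reads and the next, with the lowest value of 9, lay 9993 bp away at 253205696. The last, at 253220498, was the tallest with 27 reads. On chromosome 3, from 187060346 to 187076962, the array began with 12 reads at 187060552. Its lowest value of 10 stood at 187063848 and 187065899, and its last summit, at 187076779, was the tallest with 25.

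The remaining array of 8, on chromosome 6 from 164750706 to 164761245, was the most evenly spaced of the 88. Its 7 gaps measured 1624, 1544, 1266, 1156, 1105, 1729 and 1243 bp, a mean of 1381 bp with an SD of 247 bp. Pileups were 17 at the first summit (164751092), 40 (28.6 to 54.5) at the tallest (164754260) and 23 at the last (164760759), and the first was also the lowest. None of its backgrounds was at the lowest value, and its folds ran from 3.83 to 11.2. Peaks covered 38.7% of its span.

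Even spacing was uncommon. The SD of the gaps over their mean was 0.74 at the median array, with quartiles of 0.54 and 0.93, and fell under 0.3 in 4 arrays. Besides the chromosome 6 array of 8 these were a 6-peak array on chromosome 6 from 146312560 to 146317736, and 5-peak arrays on chromosome 2 from 167836473 to 167844220 and on chromosome 9 from 153434962 to 153440382. These 3 were chosen after their values were seen. Their gaps averaged 977 bp (SD 239), 1872 bp (SD 498) and 1265 bp (SD 342). At the uneven end 14 arrays had a ratio of at least 1, where a few summits stood in clumps with long gaps between. A gap of at least 5 kb occurred in 66 of the 88 arrays, and 5 arrays had no gap over 2 kb.

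Neighbouring summits in arrays were 322 to 9993 bp apart, with a median of 1950 bp over 451 gaps. The median was 2329 bp over 832 gaps in runs of 3 or 4 summits and 2325 bp over 987 pairs. Gaps up to 2 kb made up 51.0% of those in arrays (95% Wilson interval 46.4 to 55.6%), 45.0% (41.6 to 48.3%) in the shorter runs and 43.9% (40.8 to 47.0%) in pairs. At 5 kb the shares were 78.0%, 77.9% and 75.3%. The small excess over shorter runs thus lay below that distance, and part of that over pairs remained there. At 2 kb the interval of arrays overlaps both others, and the rule itself linked summits by these distances. The edges of adjacent array peaks were under 500 bp apart in 20.6% of cases, against 17.4% in shorter runs and 19.3% in pairs.

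**Figure D2:**
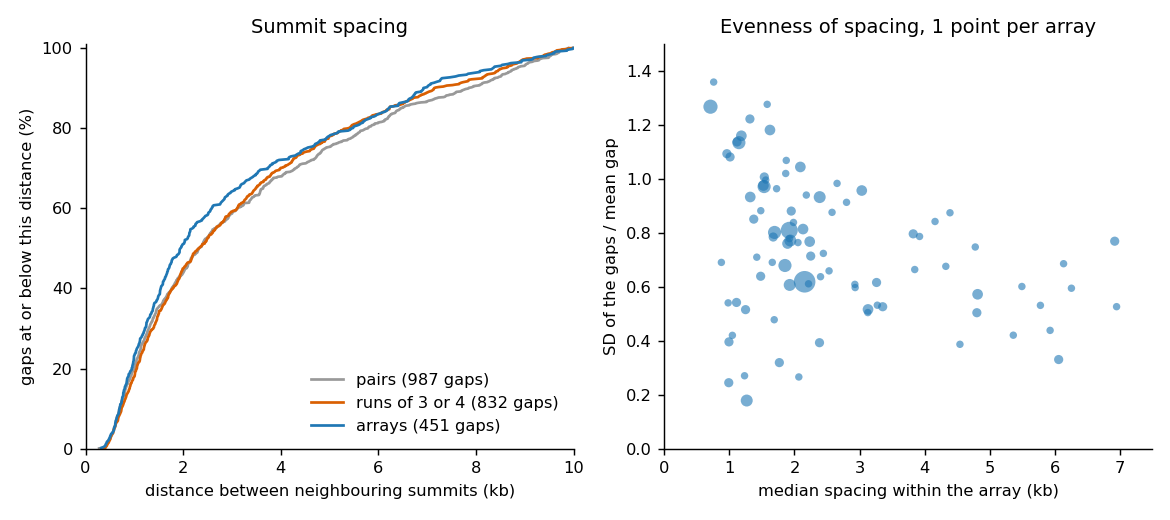
Left, cumulative share of gaps (%) against the distance between neighbouring summits (kb) in arrays, runs of 3 or 4 summits, and pairs, with the arrays' line slightly above the others near 2 kb. Right, SD of the gaps over their mean against the median spacing (kb) of each of the 88 arrays, with point area growing with the number of summits; the lowest point, at 0.18, is the even 8-peak array of chromosome 6.

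The 5-peak array on chromosome 9 from 154578942 to 154583767 packed its peaks into 4.83 kb, and peaks covered 56.3% of it, the largest share of any array. Its pileups were 16, 14, 14, 15 and 19 reads from the first to the last summit, with intervals that all overlap. At the loose end a 5-peak array on chromosome 8 from 163263880 to 163289341 had the longest median spacing, 6949 bp, and peaks on 7.20% of its span. Its pileups were 13, 12, 10, 13 and 8 reads.

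Array peaks were lower than other chromosomal peaks in pileup and alike in fold. Their median pileup was 14 reads (quartiles 10.5 and 19), against 15 (11 and 21) in runs of 3 or 4, 15 (12 and 22) in pairs and 17 (12 and 23) for solitary summits. A pileup of at least 20 reads was reached by 126 array peaks (23.4%), by 30.2% (27.6 to 32.8%) of the peaks in shorter runs, by 32.6% in pairs and by 37.7% (36.4 to 39.0%) of solitary peaks. The lower pileup was not seen in the 11 arrays of 8 or more summits. Their 110 peaks had a median of 16 reads, with 32.7% (24.7 to 41.9%) at 20 or more. All peaks outside arrays had 16 reads and 35.4%. Arrays of 6 or 7 summits had 13 reads and 16.3%, and those of 5 had 13 reads and 25.5%. The median fold was 5.93 in arrays, 6.08 in shorter runs, 5.90 in pairs and 5.83 for solitary peaks. These intervals treat peaks as independent, which neighbours are not, and are too narrow by an unknown amount.

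The background was lower too. It was at its lowest value for 316 array peaks (58.6%, 54.4 to 62.7%), 46.9% of the peaks in shorter runs, 36.7% in pairs and 29.4% (28.1 to 30.6%) of solitary peaks. Where the background is low, fewer reads are enough to call a peak. Among peaks at the lowest background the median pileup was 12 reads in arrays (quartiles 10 and 16) and 12 (10 and 15) for solitary peaks. Among the others it was 17 (13 and 23) in arrays and 19 (15 and 26) for solitary peaks. The part of the low background in the pileup difference was not tested further.

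Length went the other way. Array peaks were 382 bp long at the median (quartiles 299.5 and 538.5), against 347 bp (280 and 458) for solitary peaks and 358.5 bp in pairs. Peaks in runs of 3 or 4 were as long, with a median of 383 bp. The difference from solitary peaks was present at both levels of background, with medians of 379 and 326 bp at the lowest value and 384 and 356 bp above it. Runs of 3 or 4 had medians of 368 bp at the lowest value and 399 bp above it. The difference from solitary peaks also appeared at like pileups, with longer array peaks in 8 of the 10 combinations of pileup band and background level. Among peaks of 15 to 19 reads at the lowest background, the 61 in arrays had a median length of 467 bp and the 219 solitary ones 378 bp. At 10 to 14 reads the medians were 341 bp (155 peaks) and 301 bp (803 peaks). The exceptions were peaks of 30 reads or more at the lowest background, with 583.5 bp over 14 array peaks and 624 bp over 55 solitary ones, and peaks of 7 to 9 reads above it, with 251 bp over 6 and 300.5 bp over 84. Peaks of at least 1000 bp made up 4.08% of array peaks (22 peaks, 2.71 to 6.10%) and 1.41% of solitary peaks (1.12 to 1.76%). The shares were 2.92% (2.11 to 4.04%) in runs of 3 or 4 and 2.74% (2.10 to 3.55%) in pairs, with intervals that overlap that of arrays.

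**Figure D3:**
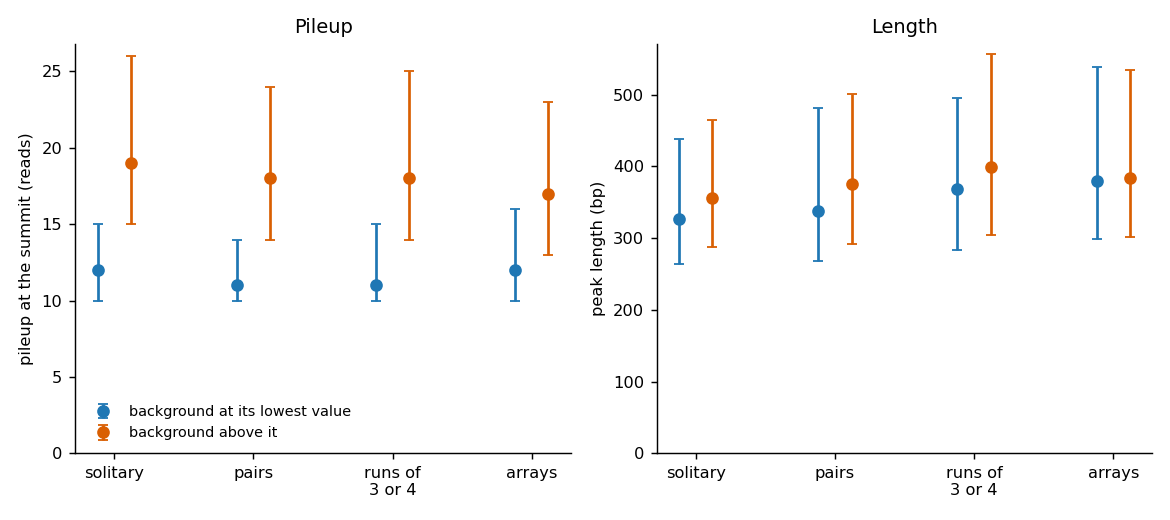
Median pileup (reads, left) and median peak length (bp, right) of solitary summits, pairs, runs of 3 or 4 and arrays, with bars for the lower and upper quartiles. Blue shows peaks whose background is at its lowest value and orange the others; at the lowest background pileup medians stay at 11 or 12 reads while length rises from 326 bp in solitary peaks to 379 bp in arrays.

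The other peaks near the arrays had similar pileups and a background between those of arrays and of the rest. In windows of 5 Mb, 56 of the 415 windows with peaks held an array peak. The other 2145 peaks in those windows had a median pileup of 14 reads, the same as the arrays, and the 6283 peaks in windows without arrays had 17. The share at the lowest background was 47.2% (45.1 to 49.3%) for the other peaks of the same windows and 28.9% elsewhere. Window by window, the array median of the pileup was above that of the other peaks in 23, below it in 25 and equal in 8. Length differed more within windows, with a longer median for array peaks in 35 and a shorter one in 21. The median difference over windows was 19 bp. The share at the lowest background was higher for array peaks in 32 windows, lower in 23 and equal in 1. Their median fold was higher in 30, lower in 23 and equal in 3.

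**Figure D4:**
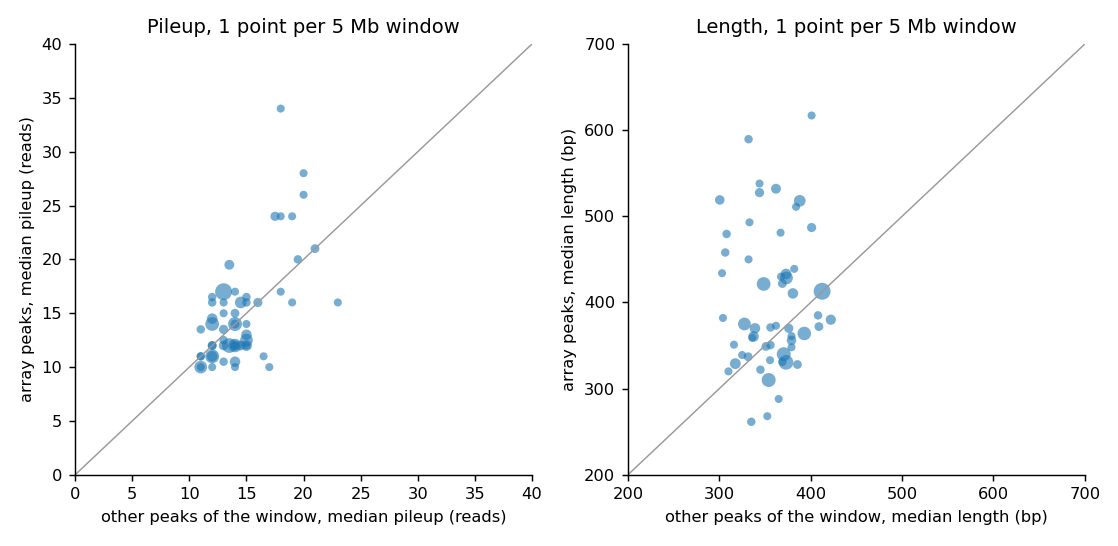
Median pileup (reads, left) and median length (bp, right) of array peaks against those of the other peaks in the same 5 Mb window, 1 point per window, area growing with the number of array peaks; the line marks equality. The window of the chromosome 4 array, at a pileup of 324 reads, is not drawn. Pileup points scatter about the line, and 35 of the 56 windows have longer array peaks.

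Arrays also sat among many other peaks. Within 500 kb on either side of an array's middle there were 12.5 further peaks at the median (quartiles 8 and 19, highest 44). Around solitary summits there were 5 (2 and 9), around pairs 7 and around runs of 3 or 4 there were 9. A long run is easier to make where peaks are dense, so this relation is in part built into the rule.

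Arrays held strong sites about as often as the rest of the list did. Of the array peaks 59 had a fold of at least 10 (10.9%, 8.58 to 13.9%), beside 11.7% of all chromosomal peaks, and 4 (0.742%) had one of at least 20, beside 0.569%. Both shares are near those of the whole list. In runs of 3 or 4 the share with a fold of at least 10 was higher, 14.5% (12.6 to 16.6%), with an interval that overlaps that of arrays. It was 11.1% in pairs and 11.3% for solitary peaks. Of the 88 arrays 39 held at least 1 peak with a fold of at least 10, and 3 held one of at least 20.

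Chromosome 6 held the 4 array peaks with the largest folds. The first, at 96483898, had 68 reads (52.8 to 86.2) and a fold of 33.5. Its array ran from 96477187 to 96498030, and the other 4 summits had 21, 22, 19 and 19 reads. Their intervals all lie below that of the tall one, and the median fold of 9.72 was the highest of any array. The next 2 by fold stood side by side in an array from 156580833 to 156602449. They had 63 reads (48.4 to 80.6) at 156591182 and 51 (38.0 to 67.1) at 156593467, folds of 31.1 and 24.7, and lengths of 1501 and 1748 bp. The neighbour at 156595075 had 10 reads (4.80 to 18.4), and the ratio of 6.30 between tallest and lowest was the widest of the 88 arrays. The fourth, at 146429784, had 42 reads and a fold of 20.9 among 5 neighbours of 10 to 26 reads.

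The next 6 had folds of 16.5 to 19.4. On chromosome 3 the summit at 181734204 had 39 reads and a fold of 19.4, and the one at 226862145 had 33 reads and was the last of its 6. On chromosome 8 the summit at 138416851 was described above, and that at 120488648 had 47 reads and was the longest peak in any array, 2700 bp. The others were at 209673066 on chromosome 2, with 35 reads, and at 274790295 on chromosome 1, with 33. The last 2 of the 10 share their fold of 16.5 with the chromosome 7 summit at 175249199, also of 33 reads, which the order of chromosomes placed outside. Of these 10 peaks 8 had a background at its lowest value, and the background was 1.10 reads at 156593467 and 1.76 at 120488648.

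Heights within an array differed by a moderate factor. The tallest was 2.38 times the lowest at the median array, with quartiles of 1.90 and 2.79. In 59 of the 88 arrays the Poisson interval of the tallest overlapped that of the lowest, and in 29 it lay above. At such low read numbers these intervals are wide, so an overlap does not show equal height. The tallest and lowest were picked as extremes, for which the intervals make no allowance, so a separation does not by itself show a difference in height. The tallest was at least 1.5 times the next in 17 arrays and at least 2 times in 4. Adjacent summits differed by a factor of 1.33 at the median in arrays, in shorter runs and in pairs alike.

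Pileup and length were compared from the ends of the arrays to the middle. The 176 end peaks had a median pileup of 13.5 reads, the 176 next to them 13 and the 187 further inside 14. Their median lengths, pooled over arrays, were 400, 373.5 and 371 bp, with quartiles of 300.5 and 544.5 bp at the ends and of 295.5 and 514.5 bp furthest inside. Taken relative to the median of its own array, the median peak stood at 1 in each of these places, in length and in pileup. Ratios to an array's own median centre on 1 by construction, so a small change toward the ends could be missed. Whether peaks lengthen toward the ends within arrays is thus not decided. The tallest peak of the array stood at an end in 33 of 88 arrays (37.5%), ties included, where end peaks make up 32.7% of all array peaks. The first share counts arrays and the second pools peaks, to which long arrays add few ends. Ties can also raise the first, so the second is no matched baseline and an excess at the ends is not shown. The tallest peak was also the longest in 32 arrays (36.4%).

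One array stood apart in pileup and background. On chromosome 4, from 172415297 to 172440340, 5 peaks of 267 to 462 bp had pileups of 338, 301, 453, 318 and 324 reads over backgrounds of 178.4 to 235.5 reads. Its median pileup was the highest, its median fold of 1.68 the lowest and its 6.40% of span under peaks the smallest of the 88. In the other 87 arrays pileups ran only to 68 reads. At the opposite end the array on chromosome 3 from 190793446 to 190818020 had the lowest median pileup, 9 reads, with 8, 10, 8, 8, 11 and 16 reads in order, all over the lowest background.

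Arrays were frequent on chromosomes 2, 6 and 8 and rare on chromosomes 4 and 5. Chromosome 2 held 19 arrays with 129 peaks (9.52% of its peaks, 8.07 to 11.2%), chromosome 6 held 17 with 95 (10.02%, 8.27 to 12.1%) and chromosome 8 held 15 with 97 (8.86%, 7.32 to 10.7%). Chromosomes 4 and 5 held 1 each, or 0.838% (0.358 to 1.94%) and 0.553% (0.236 to 1.29%) of their peaks. Chromosome 1 had 11, chromosome 3 had 9, chromosome 9 had 8, chromosome 7 had 4 and chromosome 10 had 3. Per 100 Mb the number ran from 0.413 on chromosome 4 to 10.05 on chromosome 6. Peaks of all kinds were also denser on chromosomes 2, 6 and 8, with 1355 over 237 Mb, 948 over 169 Mb and 1095 over 175 Mb. Chromosomes 4 and 5 had 597 over 242 Mb and 904 over 217 Mb. Dense peaks link into long runs more easily, and how far the number of arrays follows peak density was not tested.

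The differences from other peaks were not the same on every chromosome. The median pileup of array peaks was below that of the other peaks on 6 of 10 chromosomes and above it on 3, and equal on chromosome 9. On chromosome 2 it was 15 against 13 reads, and on chromosome 8 it was 11 against 15. The share at the lowest background was higher in arrays on 6 chromosomes, most so on chromosome 8 (81.4 against 39.2%), and lower on 4. On chromosome 10 none of the 19 array peaks was at it, against 30.3% of the others. Array peaks were longer at the median on 9 chromosomes and shorter on chromosome 4, where the single array has 5 peaks.

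Arrays were concentrated toward the high-coordinate end of the chromosomes. With each chromosome divided into 5 equal parts up to its last peak, the last part held 49 of 88 arrays (55.7%, 45.3 to 65.6%) and 56.2% of array peaks (52.0 to 60.3%). It held 48.9% (46.0 to 51.7%) of the peaks in runs of 3 or 4, 38.9% of those in pairs and 30.6% (29.4 to 31.9%) of solitary peaks. The fourth part held 21 arrays, the first 12, the middle 4 and the second 2. Peaks outside arrays leaned the same way, with 35.2% in the last part, 10.7% in the second and 12.4% in the middle. Dense peaks link into long runs more easily, and placement apart from peak density was not tested. The share of the last part was higher for array peaks than for the others on 7 of 10 chromosomes. In the outermost 10% of length, 24 arrays lay at the high end and 7 at the low end.

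**Figure D5:**
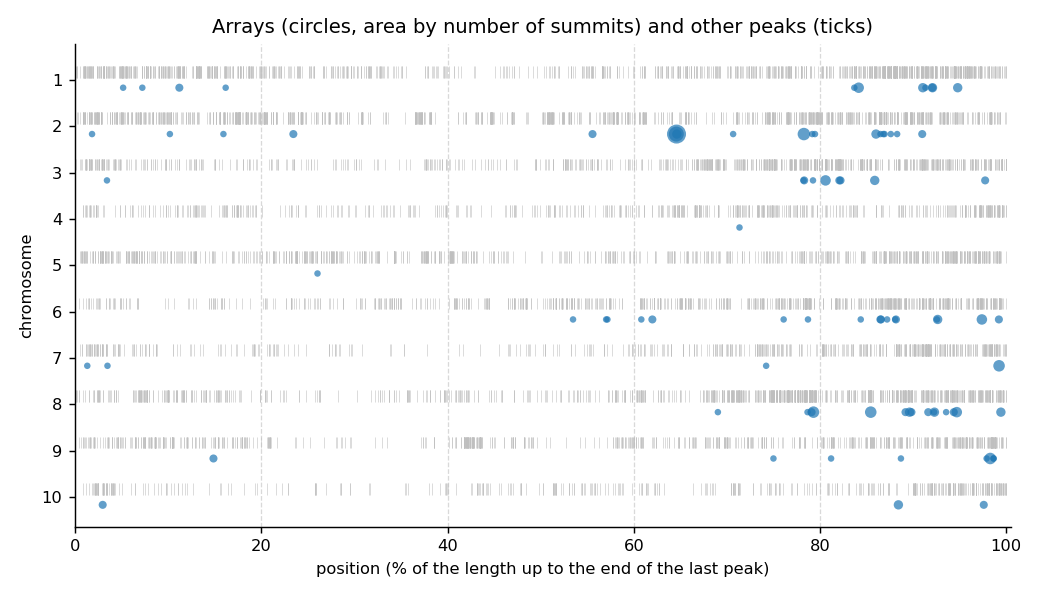
Middle of each array (blue circles, area growing with the number of summits) and every other peak (grey ticks) on chromosomes 1 to 10, as a percentage of the distance from base 1 to where the last peak ends. Dashed lines divide the chromosomes into 5 equal parts; 49 of the 88 arrays lie in the last part and 6 in the second and middle parts together.

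Arrays also grouped at a larger scale. Of the 88, 38 had the middle of another within 1 Mb. The windows from 145 to 150 Mb on chromosome 6 and from 205 to 210 Mb on chromosome 2 held 5 arrays each, with 28 and 25 array peaks of 98 and 83 peaks. The windows from 155 to 160 Mb and 160 to 165 Mb on chromosome 8 and from 150 to 155 Mb on chromosome 9 held 4 arrays each. In the window from 150 to 155 Mb on chromosome 2, 39 of 49 peaks belonged to the group of 3 arrays.

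The limits of the rule cut through a continuous range. The 44 arrays of 5 summits had a median pileup of 13 reads, a median fold of 6.08 and 56.4% of peaks at the lowest background, and the 102 runs of 4 summits just outside had 14 reads, 6.15 and 51.0%. Of the gaps inside arrays 14 were over 9 kb, and the largest was 9993 bp. The smallest gap between an array and the next peak outside was 10044 bp, 4 of the 176 such gaps were up to 11 kb, and their median was 54.6 kb.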

How the data were processed

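Chromatin from 1 wild type and 1 o11 mutant library was compared in a single peak list. Per the submitters' processing notes the tools were Bowtie2 and MACS2 (version 2.0.10), and their settings are not given in the sources used here. The build is not named outright, though the peak names hold the tag v3. Per the file headers, the deposited list gives for each peak its length, its pileup signal, a fold enrichment ratio, and a −log10 p-value and −log10 q-value, all the authors' own. No pileup below 7 reads and no −log10 q below 2.17 is listed. Depth per library is unknown.

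The background was computed as (pileup + 1)/fold − 1. A Poisson tail computed from it matched the deposited −log10 p-values within 0.000209. A background within 0.001 reads of 1.06 counted as the lowest. All 9080 summits matched their peaks. Peaks off chromosomes 1 to 10 (113) were left out. Linking and background were tested on simulated positions and folds. Shares carry Wilson 95% intervals. Python 3.11.15 with pandas 2.3.3 and scipy 1.17.1 was used.

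Arrays named are the 10 with most summits (ties by lower chromosome and start) and those with the extreme spacing, covered share, pileup, fold and pileup ratio; peaks named are the highest, lowest, first and last of the former and the 10 of largest fold (ties likewise). Members and rules were chosen with earlier results of these data known. Alternatives were other linking distances, run sizes, peak thresholds and thinning. The reference table at hand is of another or unknown build and holds no sequence, so genes and motifs were not analysed here.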

Additional observations from a re-analysis of the deposited data

How the results depend on the processing

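The number of arrays and array peaks followed the rule. There were 38 arrays with 224 peaks at a linking distance of 5 kb, 137 with 866 at 20 kb, 190 with 947 for runs of 4 or more, 44 with 319 for runs of 6 or more, and 54 with 322 after thinning summits under 1 kb apart. Over these 5 alternatives medians of pileup, fold and length and the share at the lowest background stayed within their intervals. The share of array peaks in the last of 5 parts of the chromosome moved from 56.2% to 62.5% at 5 kb, 66.8% for runs of 6 or more, 61.5% after thinning and 60.6% without the group of 3 arrays on chromosome 2. It was 52.2% at 20 kb and 52.3% for runs of 4 or more, both below the reported value and inside its interval.

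Keeping peaks whose −log10 q reached the list's median left 9 arrays with 48 peaks, a median pileup of 17.5 reads, fold of 7.78 and length of 440 bp, 45.8% at the lowest background and 66.7% in the last part. With only peaks of a pileup of at least 20 reads, 5 arrays with 27 peaks were left, with medians of 27 reads, a fold of 4.45 and 429 bp, 0% at the lowest background and 18.5% in the last part. Both thresholds raise the pileup by construction and remove peaks from runs. The cause of the other moves was not tested. Leaving out the chromosome 4 array moved no value beyond its interval. The pileup threshold and the 2 left-out sets were chosen after seeing the data. No paired analysis was possible because wild type and mutant were each sequenced as 1 library. The list starts at 7 reads, and how arrays depend on depth was not tested.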
